A study of Mus musculus with 4 samples.

Results

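The libraries described are the H3K36me3 chromatin immunoprecipitation (ChIP) and the input made for it, 2 of the 4 libraries of the series. They were chosen by their labels, as the ChIP with the H3K36me3 antibody and its unamplified input. The series also holds an H3K4me3 ChIP and its own input, both amplified by whole-genome amplification (WGA), and these enter only as a second readout. All 4 libraries came from forebrain of CD1 mouse embryos, an outbred strain, at embryonic day 11.5, with no genetic change or treatment named in the labels. Forebrains were pooled, with 36 pieces for a ChIP library, fixed in 1% formaldehyde and sonicated 12 times for 30 seconds. The H3K36me3 ChIP used 15 microlitres of antibody. Each group is 1 library of pooled tissue with mixed cell types, so no spread between replicates could be measured, tests compared libraries and not conditions, and intervals cover counting error only. Fewer cells with the mark and less mark per cell cannot be told apart in such tissue.

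Trimethylation of lysine 36 of histone H3 is laid down by SETD2, an enzyme that travels with elongating RNA polymerase II, and it is known for covering the bodies of transcribed genes. Trimethylation of lysine 4 (H3K4me3) marks promoters, at the start of such genes. Input is sonicated chromatin that was sequenced without immunoprecipitation, and it records how evenly chromatin was broken, recovered and placed on the genome. The labelled tissue was not checked against marker genes, because no gene annotation of the files' build, mm8, was used here, and regions are named by mm8 coordinates alone.

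The H3K36me3 ChIP held 10466543 tags, of which 10304603 lay on chromosomes 1 to 19. Its input held 23110865 tags, with 22529248 on those chromosomes. A tag is the placed position of a read. Whether minus-strand positions are read starts or leftmost bases is not given in the sources used here. Every 10 kb bin with at least 1 input tag was counted as covered, which gave 236804 bins or 2368 Mb, with 9.51 input tags and 4.35 ChIP tags per kb. Plus and minus tags were most often 139 bp apart in the ChIP and 135 bp apart in the input. If positions are read starts on both strands, moving each tag by 75 bp along its strand brought tags close to the middle of fragments. By these offsets that middle lies 69.5 bp from the tag in the ChIP and 67.5 bp in the input.

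The first question was how much ChIP signal to expect where the mark is absent. Most of the genome gave few ChIP tags for its input, and most ChIP tags came from a small part of it. Background was read from the less filled covered bins of 10 kb, those whose ChIP and input tags together did not exceed the median. In these 119191 bins the ChIP held 592417 tags and the input 5342160. This background scale was 0.111 ChIP tags per input tag (95% Clopper-Pearson interval 0.1106 to 0.1112). The totals of the libraries gave 0.457 ChIP tags per input tag, 4.12 times as many. At the background scale, 24.2% of the ChIP tags would be background, and the other 75.8% lay above it. All ratios below are ChIP tags divided by input tags and by the background scale, so that a ratio of 1 is background.

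The scale depended on bin size and on which bins were taken as background, as the plot of the scale by bin size shows. At 10 kb the lowest 25% of bins gave 0.0909 and the most frequent log2 ratio gave 0.0899, and with these 19.9% and 19.7% of the ChIP tags would be background. Bins chosen by low input alone, whatever their ChIP tags, gave 0.261. The median rule moved little between bins of 1 kb (0.116), 5 kb (0.112), 10 kb (0.111) and 100 kb (0.122), but it gave 0.221 at 1 Mb. The most frequent ratio stayed between 0.0869 and 0.0964 from 1 kb to 100 kb and was 0.413 at 1 Mb. Of the 1 Mb windows with at least 90% covered bins, 6.18% held no domain as called below, so few unmarked windows were there to set a scale.

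**Figure D1:**
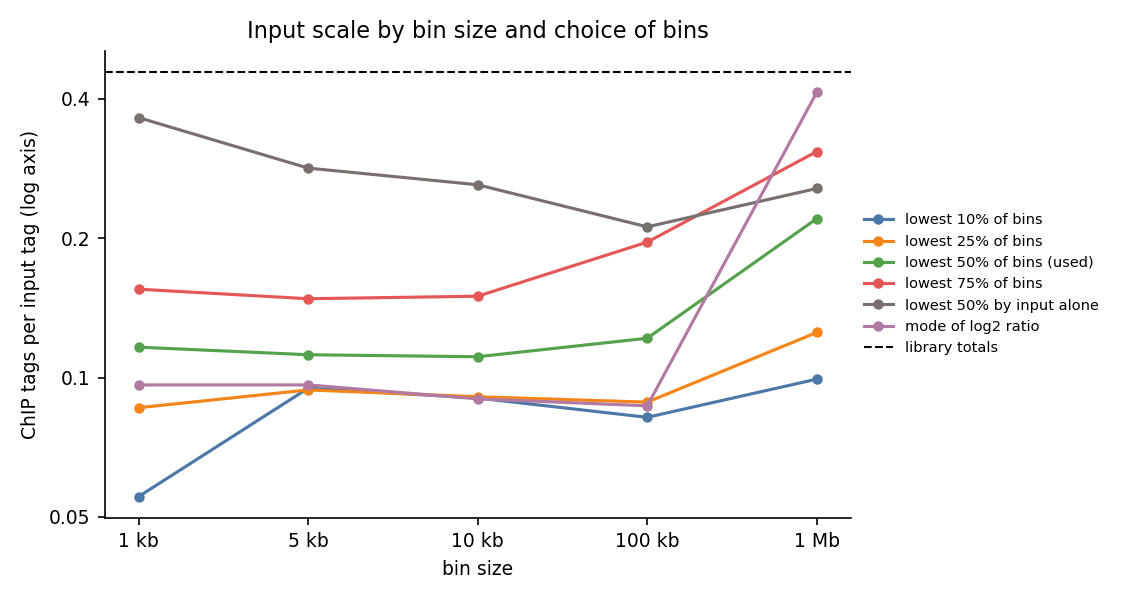
ChIP tags per input tag (vertical, log axis) by bin size (horizontal) for each choice of background bins, with the ratio of library totals as a dashed line. The median rule stays between 0.111 and 0.122 up to 100 kb and reaches 0.221 at 1 Mb, while the totals give 0.457.

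Single chromosomes differed in background by more than counting error. The scale ran from 0.0946 on chromosome 6 (0.0935 to 0.0958) to 0.133 on chromosome 9 (0.132 to 0.134), with a median of 0.112 and an SD of 0.0110 over the 19 chromosomes. Chromosome 11, which had the deepest input at 12.5 tags per kb, also had a high scale of 0.132. The order of chromosomes depended on the rule: by the most frequent ratio chromosome 9 was at 0.0811 and chromosome 11 at 0.0899, the median of all, and chromosome 7 was lowest by that rule (0.0730) and by the lowest 25% of bins (0.0688). The ratio of totals ran from 0.382 on chromosome 3 to 0.546 on chromosome 5, and it was above the chromosome's own background scale on each of the 19.

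With the background scale, bins were called at every bin size, and the called share was higher at 100 kb and 1 Mb than at 5 kb and 10 kb. In bins of 5 kb with at least 10 tags, 75360 of 442774 were called, at an adjusted p under 0.05 (one-sided exact binomial test, Benjamini-Hochberg adjustment) and a ratio of at least 4, which is 17.0% of those tested. With the roles of ChIP and input exchanged, the test called 677 bins of 5 kb, 0.153%, and 0 of 1 kb, 3399 of 10 kb (1.45%), 149 of 100 kb (0.625%) and 1 of 1 Mb. The called share was 27.1% at 1 kb (294132 of 1086953 bins), 16.9% at 10 kb (39411 of 233664), 24.2% at 100 kb (5771 of 23826) and 32.7% at 1 Mb (788 of 2411). At 1 kb, 1086953 of 2175390 covered bins reached 10 tags, and a bin with little input could reach that number only through the ChIP, so the share at that size is not comparable with the others.

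Scaling by totals called fewer marked bins and many more bins with the roles exchanged. With totals and a ratio of at least 1.5, 51513 bins of 5 kb were called, 11.6% of those tested, and the exchanged test called 295683, 66.8%. That ratio is stricter than the main one once both are put on the same scale, so all 51513 were bound to be among the 75360, of which they are 68.4%. With totals and the ratio kept at 4, only the scale differed from the main test. That setting called 24503 bins (5.53%), and its exchanged test called 211241 (47.7%), against 0.153% with the background scale. A bin exactly at the background scale lies 4.12-fold below the totals scale, beyond both ratios. The exchanged counts with totals thus follow from the choice of scale and test nothing.

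The 677 bins of 5 kb in which input exceeded scaled ChIP had a median of 125 input tags, against 41 in all tested bins, and of 1 ChIP tag. Only bins with deep input could pass this test, since a bin of median depth has few background ChIP tags to lose. The share with H3K4me3 could not be told from that of all tested bins at this number of bins, but depth was not matched. A 1 kb bin with at least 15 H3K4me3 ChIP tags, called an H3K4me3 bin below, lay in 3.25% of the 677 bins (22 bins, 95% interval 2.05 to 4.88) and in 3.04% of all tested bins. Tested bins that held one had a median of 81 input tags. The share in bins as deep as the 677 was not measured.

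Bins were next asked whether they fall into a marked and an unmarked class. From 1 kb to 10 kb they did not form 2 separate groups: the ratios had 1 peak at background and a long flat shoulder towards high values. At 5 kb the median ratio was 0.967, and 71.7% of bins were under 2, 11.2% between 2 and 4, 6.35% between 4 and 8, 5.04% between 8 and 16 and 5.73% at 16 or more. The background peak of the smoothed log2 ratios lay at a ratio of 0.856 at 1 kb and 5 kb and 0.826 at 10 kb. A further low peak, at ratios of 0.0730, 0.0554 and 0.0307 at those sizes, came from bins with no ChIP tag. Such bins were 20.3% of tested bins at 1 kb, 10.4% at 5 kb and 4.01% at 10 kb, and with them left out 1 peak remained at each of the 3 sizes.

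A marked peak appeared only in large windows. At 100 kb the main setting showed 1 peak, at 0.798, and a broad shelf above it. A second peak at 5.76 was found there with a narrower smoothing kernel (SD 0.15 in place of 0.25 log2 units) or with at least 500 tags per window, and the valley before it was shallow, at 0.820 and 0.842 of the lower peak. At 1 Mb there were 2 peaks, at ratios of 0.826 and 3.80, with a valley at 1.39 that reached down to 0.731 of the lower peak. The peak at 3.80 was the higher of the pair, and 72.0% of windows lay above the valley. With a kernel SD of 0.5 the valley at 1 Mb was lost and 1 peak remained, at 3.67.

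**Figure D2:**
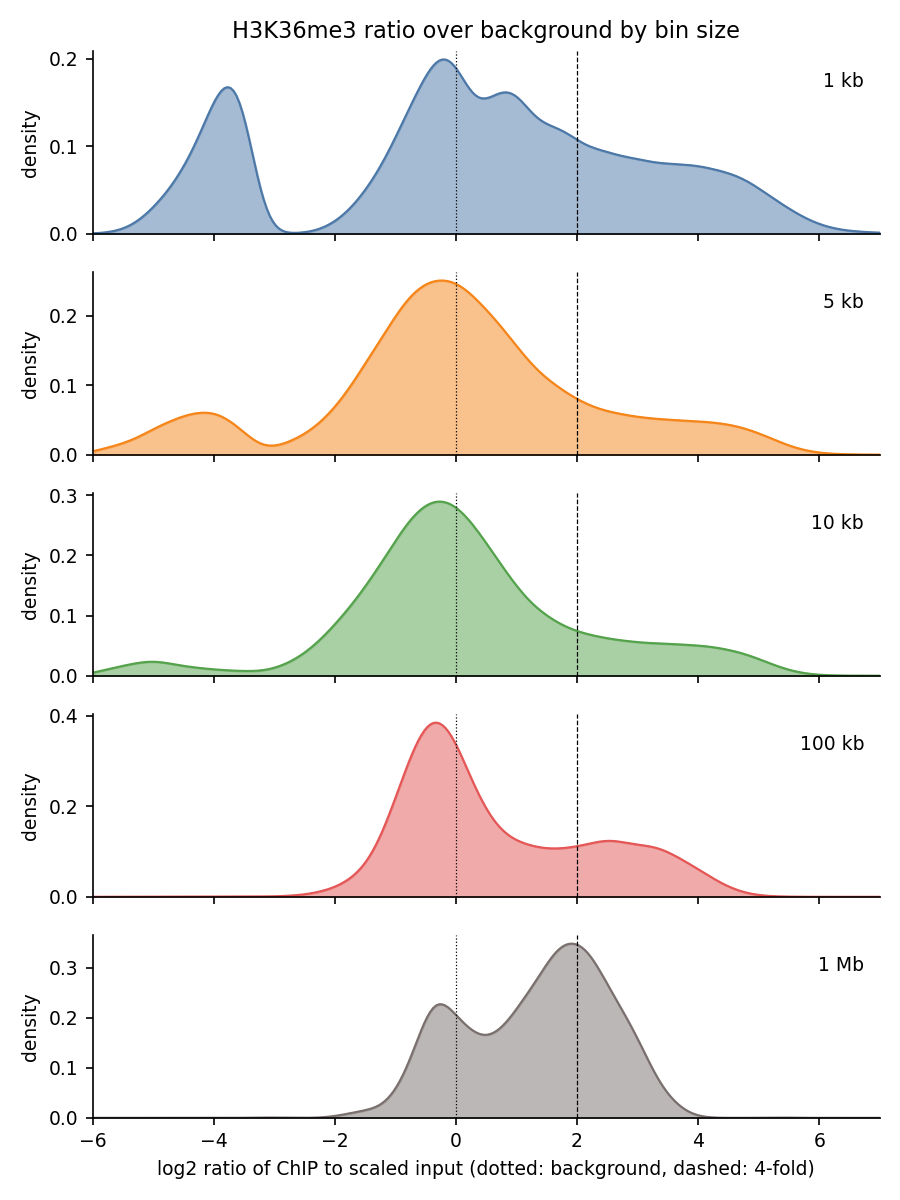
Smoothed density (vertical) of the log2 ratio of ChIP to scaled input (horizontal) for bins of 1 kb, 5 kb, 10 kb, 100 kb and 1 Mb with at least 10 tags. Bins up to 10 kb show a background peak with a flat shoulder above 4-fold and a low peak of bins without ChIP tags, and windows of 1 Mb show peaks at ratios of 0.826 and 3.80.

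A mixture of a low and a high class, each with its own spread (beta-binomial, fitted by maximum likelihood), described the same trend. The high class held 25.9% of bins at 1 kb, 26.6% at 5 kb, 28.9% at 10 kb, 42.2% at 100 kb and 76.2% at 1 Mb. The level of a class was the ratio at its mean share of ChIP tags, which is not the mean of its bin ratios. The level of the high class was 6.76 at 5 kb, 5.99 at 10 kb, 5.05 at 100 kb and 3.73 at 1 Mb. It was 13.4 among the 1 kb bins that reached 10 tags, which are not comparable. The low class stayed between 0.825 and 1.12. Between 15.8% and 21.9% of bins could not be given to either class with a probability of 90%. From 5 kb upwards, the high class thus held a larger share of bins at a lower level as bins grew.

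Windows of intermediate ratio held mostly 5 kb bins outside that range. Among the 2585 windows of 100 kb with a ratio between 2 and 4, 54.8% of their tested 5 kb bins were under 2, 24.4% between 2 and 4 and 20.9% at 4 or more. In the 739 windows of 1 Mb in that range the shares were 71.0%, 13.0% and 16.1%, close to those of all tested 5 kb bins given above. Bins between 2 and 4 were more frequent in the 100 kb windows than among all bins, 24.4% against 11.2%. Even in the 129 windows of 1 Mb with a ratio between 8 and 16, 45.5% of the 5 kb bins were under 2.

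Tags of each strand, counted apart, show how far counting error reaches. Log2 ratios from plus tags and from minus tags had a Pearson correlation across bins of 0.679 at 1 kb, 0.653 at 5 kb, 0.699 at 10 kb, 0.958 at 100 kb and 0.994 at 1 Mb (1086953, 442774, 233664, 23826 and 2411 bins). Both strands share the libraries, so this is a description of depth and not of replication. Single bins up to 10 kb were noisy, and windows of 100 kb or more were not. Of the bins called from plus tags, 87.3% at 5 kb and 97.1% at 100 kb were also called from minus tags.

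The windows of 1 Mb with the highest ratios, among 2384 with at least 50% covered bins, lay between 12.5 and 14.2. The window chr5:145000001-146000000 had 18960 ChIP and 12082 input tags, a ratio of 14.2 (13.8 to 14.5), with 320 kb in domains. Next came chr3:88000001-89000000 at 13.9 with 630 kb in domains, chr5:134000001-135000000 at 13.3, chr8:72000001-73000000 at 13.2 and chr5:143000001-144000000 at 12.5. Of the 5, 3 were on chromosome 5, the chromosome with the highest ratio of totals.

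The 5 lowest windows held no domain and lay below background, between 0.264 and 0.303. The lowest, chr17:38000001-39000000, had 96 ChIP tags against 3284 input tags (0.264, interval 0.213 to 0.323). Neighbouring windows chr12:114000001-115000000 (0.283) and chr12:115000001-116000000 (0.303) were both among them, with chr6:130000001-131000000 at 0.298 and chr7:7000001-8000000 at 0.287. The last rests on 14 ChIP tags and 440 input tags, with 62% of its bins covered. All 5 had fewer input tags per kb than the genome's 9.51, at most 3.99.

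Called bins of 5 kb, joined across at most 1 uncalled bin, made 14436 domains over 402.8 Mb, 17.0% of the covered genome. They held 80.7% of the ChIP tags and 23.4% of the input tags. The pooled ratio was 14.2 inside domains and 1.04 outside them. Since domains were chosen by a ratio of at least 4, these levels describe the domains and test nothing. The covered share ran from 13.5% of chromosome 3 to 22.4% of chromosome 11.

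Most domains were short, and most of the marked length was in longer ones. The median width was 15 kb (quartiles 5 and 35 kb). Single-bin domains numbered 5380, 37.3% of all, but made up 6.68% of the length, while the 720 domains of 100 kb or more made up 24.3%. The number of such wide domains depended on the settings, from 234 at a ratio of at least 8 to 1415 at a ratio of at least 2. The median ratio rose with width up to about 50 kb and then stayed flat. Median ratios were 5.30 for 5 kb, 7.00 for 10 to 15 kb, 11.4 for 20 to 45 kb, 14.6 for 50 to 95 kb, 14.7 for 100 to 195 kb and 13.7 for the 53 domains of 200 kb or more. Ratios pooled over each class were 6.44, 10.9, 14.2, 15.3, 15.5 and 15.2, and changed little from 20 kb upwards. Called bins had a ratio of at least 4, and the lower quartile of single-bin domains was 4.51. The part of this floor in the low levels of short domains was not tested. The share of domains that held an H3K4me3 bin also rose over these classes, from 2.55% to 75.5%, as did the length in which one could fall.

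The 5 widest domains spanned 285 to 305 kb. The widest, chr2:120355001-120660000, held 4247 ChIP and 2656 input tags, a ratio of 14.4 (13.7 to 15.1), and 6 H3K4me3 bins. The domain chr12:76740001-77035000 had the highest ratio of the 5, 21.3 (20.5 to 22.0), and no H3K4me3 bin. The others were chr9:6925001-7225000 at 14.7, chr2:59550001-59835000 at 11.7 and chr13:81820001-82105000 at 13.3. In none of the 5 were more than 4 bins of 5 kb uncalled.

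Uncalled bins were a small part of domains, which by construction never hold more than 1 in a row. They numbered 5209, 6.47% of domain bins, and had a pooled ratio of 2.60. Of these, 3607 had a ratio between 2 and 4, 1347 were under 2, and 241 had too few tags to test. An H3K4me3 bin lay in 19.5% of the uncalled bins, in 5.29% of the called bins inside domains and in 3.04% of all tested bins. H3K4me3 bins were thus more frequent in the uncalled bins. Their median input was 61 tags, against 57 in called bins, and the part of input depth in the missed calls was not tested.

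The borders of domains were then placed to 1 kb. Plus-strand tags of ChIP and input placed each edge, and minus-strand tags measured the profile across it. The domains themselves, and the stretches free of called bins, came from tags of both strands. A rise at the edges thus follows in part from that choice, and the levels describe the edges and test nothing. Of 6346 domains of 20 kb or more, 5702 had at least 1 edge with 20 kb free of called bins outside, which gave 8846 edges. H3K36me3 rose steeply at them. The mean ratio was 1.48 (1.46 to 1.49) from 5 to 10 kb outside and 17.2 (17.2 to 17.3) at the same distance inside. It was 2.89 in the last kb outside, 9.16 in the first kb inside, 14.4 in the next kb and 17.0 in the kb after that. The distance from 10% to 90% of the step was 2.44 kb. Placing the edges with minus tags and measuring with plus tags gave 2.43 kb.

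The size of the step varied widely between edges. Among the 8064 edges with at least 10 input tags on either side, the median step, the 5 kb inside over the 5 kb outside, was 7.42 (quartiles 3.54 and 15.8). It was at least 4 at 71.2% of edges, at least 16 at 24.7% and under 2 at 10.5%. At 83.0% the approximate 95% interval of the step, from the counts with 0.5 tags added, lay above 1. Since domains were called from both strands, this share is a description and not a test. The lower and the higher coordinate ends had like steps, with medians of 7.35 and 7.49.

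The edges were divided into 2 classes by H3K4me3 ChIP tags, which had no part in placing the edges. Placing did use the unamplified input, which was deeper just outside edges with H3K4me3, as given below. An H3K4me3 bin lay within 3 kb of 2998 edges, 33.9% (32.9 to 34.9), which left 5848 without one. The share depended on the cut, with 41.0% at a minimum of 10 tags and 24.7% at 30. Of all tested 5 kb bins 3.04% held an H3K4me3 bin, but windows as wide as those at the edges were not counted elsewhere. The H3K4me3 ChIP was amplified and the H3K36me3 ChIP was not, so mark and amplification cannot be told apart between the pairs. Edges with H3K4me3 were steeper and started from a lower level. From outside to inside, the ratio went from 1.19 (1.17 to 1.22) to 19.5 (19.3 to 19.6) at edges with H3K4me3 and from 1.60 (1.58 to 1.62) to 16.1 (16.1 to 16.2) at edges without it. The 10% to 90% distance was 1.85 kb with H3K4me3 and 3.12 kb without it. The median step was 15.2 with it and 5.13 without it (11 and 5.18 from ChIP tags alone), so the edges also differed in how well their tags could place them, and the part of this in the distances was not tested.

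The 2 classes also differed in shape. At edges without H3K4me3 the ratio climbed gradually before the step, from 1.60 at 5 to 10 kb outside to 1.90 at 3.5 kb, 2.46 at 1.5 kb and 3.59 in the last kb. Inside, it peaked at 17.1 at 5.5 kb. At edges with H3K4me3 the ratio first fell, from 1.25 at 4.5 kb outside to 0.666 (0.640 to 0.693) at 1.5 kb outside, and then rose to 10.4 in the first kb inside and to 20.3 at 3.5 kb.

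**Figure D3:**
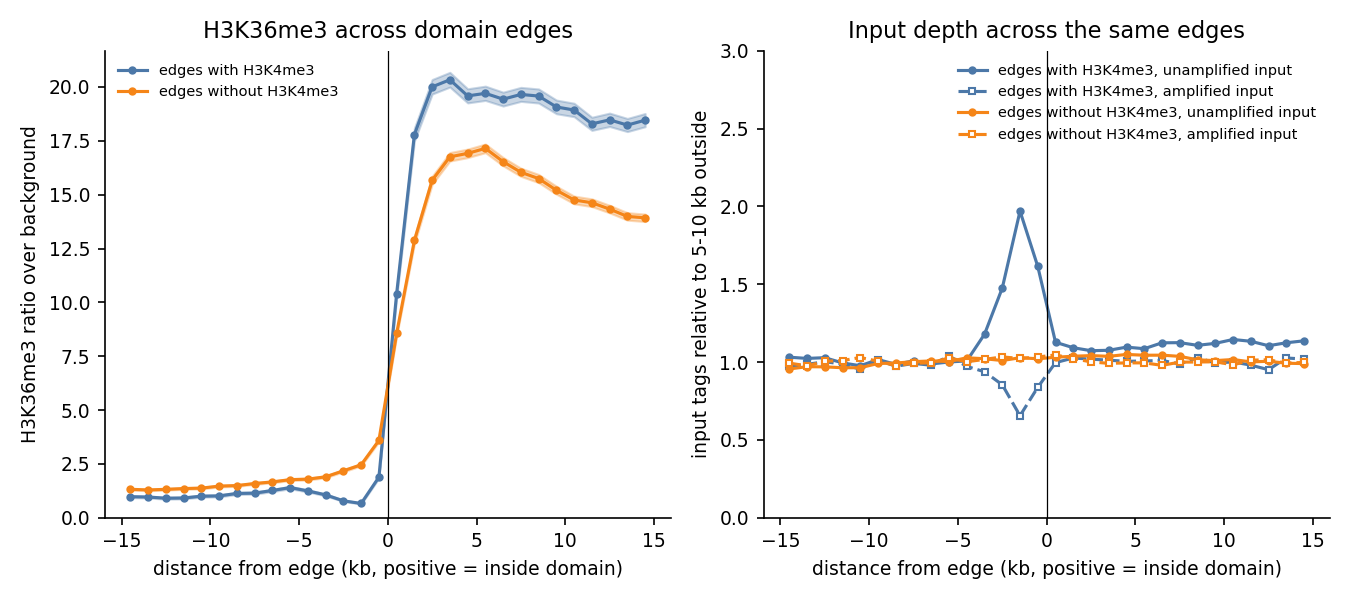
Left, H3K36me3 ratio over background (vertical) by distance from the edge in kb (horizontal, positive inside the domain) at 2998 edges with and 5848 edges without H3K4me3, from minus-strand tags, with shaded 95% counting intervals. Right, tags of the unamplified and the amplified input relative to 5 to 10 kb outside: at 1.5 kb outside edges with H3K4me3 the unamplified input reaches 1.97 and the amplified input 0.656.

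At the dip in the ratio the input moved more than the ChIP. At 1.5 kb outside edges with H3K4me3 the unamplified input had 36072 minus-strand tags against 18456 at 4.5 kb outside, and the ChIP had 2664 against 2556. Between these the ChIP had 2367 tags, at 2.5 kb outside, where the ratio was 0.790. Relative to 5 to 10 kb outside, the unamplified input reached 1.97 there. The amplified input of the other pair went the opposite way, to 0.656. At edges without H3K4me3 neither input moved that much, and the unamplified input stayed between 0.956 and 1.05 over the 15 kb on each side. Without dividing by input, the same edges had a 10% to 90% distance of 2.08 kb with H3K4me3 and 3.09 kb without it, again shorter with H3K4me3. Those edges were still placed with the input. Edges placed and measured by ChIP tags alone rose over 1.64 kb with H3K4me3 and 2.14 kb without it, a smaller difference. The part of the input in these distances was not tested.

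Within single domains, the H3K4me3 end had the larger step more often. Of the 3144 domains with both ends measured, 230 (7.32%) had H3K4me3 at both ends, 1711 (54.4%) at 1 end and 1203 (38.3%) at neither. At the 1711 one-ended domains the 10% to 90% distance was 1.88 kb at the H3K4me3 end and 3.44 kb at the other end. These distances come from profiles pooled over the ends of each kind, and none was computed for a single domain. The inside level was 19.6 (19.4 to 19.8) at the H3K4me3 end and 20.8 (20.6 to 21.0) at the other end, and the outside level was 1.12 and 1.45. Among the 1485 of these domains in which both steps could be computed, the H3K4me3 end had the larger step in 1115, 75.1% (72.8 to 77.3). The outside 5 kb of that end held the input peak, 2.02 times the level further out, against at most 1.04 times at the other end. From ChIP tags alone, the H3K4me3 end had the larger step in 992 of the 1485, 66.8% (64.3 to 69.2), and the median steps were 11.4 and 6.46 in place of 15.9 and 6.51.

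The 5 edges with the largest lower bounds of the step all had an H3K4me3 bin, against 33.9% of all edges. The step divides by input, which was deeper just outside such edges, and the ranking was not repeated with ChIP tags alone. At chr19:44348001, the lower end of a 20 kb domain, 397 ChIP and 62 input minus-strand tags inside stood against 1 and 57 outside, a step of 244 (47.2 to 1260) that rests on that single ChIP tag. The lower end of a 70 kb domain at chr19:7336001 had 369 and 75 tags inside and 4 and 94 outside, a step of 103 (38.7 to 273). Steps of 110 (36.7 to 332) at chr2:32534000 and 113 (33.7 to 376) at chr6:100801001 each rested on 3 ChIP tags outside. At chr3:31159000, 68 ChIP and 11 input tags lay inside and 0 and 49 outside, so no step is given, and the lower end of its interval was 33.9.

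Gaps between neighbouring domains came in all lengths, and the ratio in their middle was lower the longer they were. The 14417 gaps had a median of 40 kb (quartiles 15 and 130 kb) and a total of 1995 Mb. Gaps of 100 kb or more were 30.2% of gaps and 84.1% of their length, and the 315 gaps of 1 Mb or more held 24.8% of the length. The ratio in the middle of a gap was 2.21 (2.19 to 2.22) in gaps of 10 to 15 kb, 1.49 at 20 to 45 kb and 1.10 at 50 to 95 kb. Gaps of 10 kb were measured whole, so the value of the shortest class includes bins that touch domains. It went on falling below background, to 0.901 at 100 to 495 kb, 0.766 at 500 to 995 kb and 0.684 (0.679 to 0.690) at 1 Mb or more.

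The input became thinner in the same order. In the middle of gaps it was 12.9 tags per kb in the shortest class, 10.0 at 100 to 495 kb and 4.47 in the longest. The ratio divides by this input, so both fell together, and the part of input depth in the fall of the ratio was not tested. Gaps were not mainly stretches without placed tags: 203 of them (1.41%) were covered over less than 80% of their length.

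**Figure D4:**
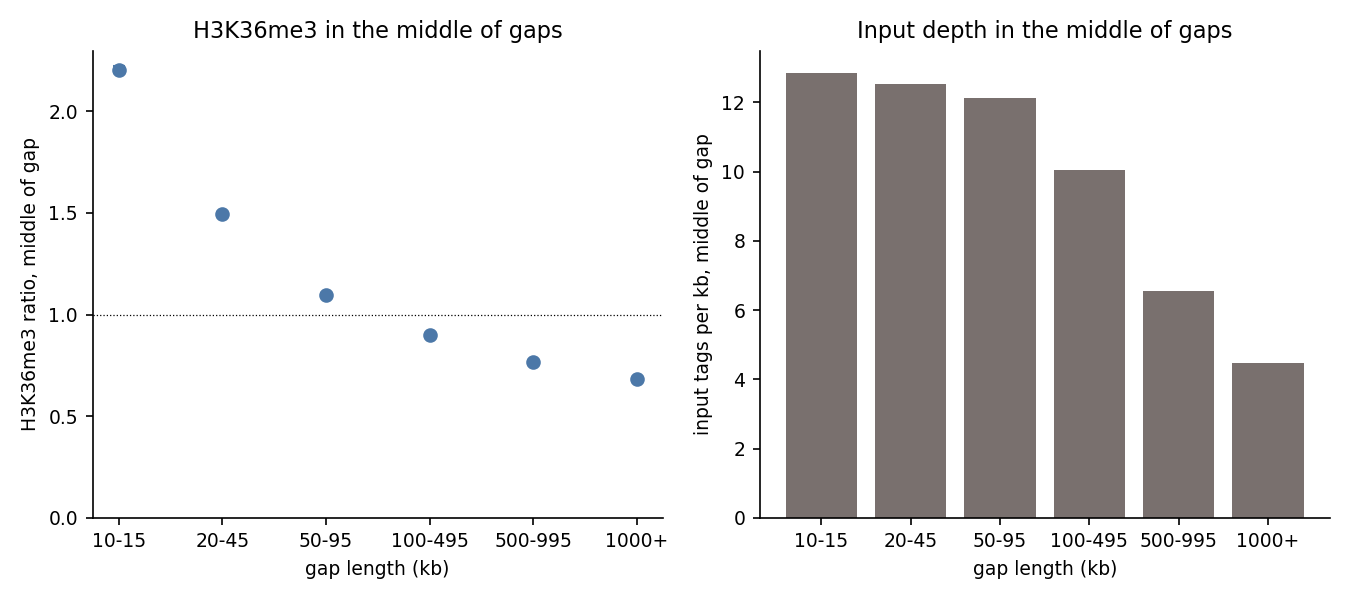
Left, H3K36me3 ratio over background in the middle of gaps (vertical, with 95% counting intervals, mostly smaller than the points) by gap length in kb (horizontal). Gaps of 10 kb were measured whole. Right, input tags per kb at the same places, as bars: the ratio falls from 2.21 to 0.684 and the input from 12.9 to 4.47 tags per kb.

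The longest gap, chr1:113690001-120120000, spanned 6430 kb at a ratio of 0.580 (0.549 to 0.611) with 3.55 input tags per kb. The gaps chr6:77865001-81890000, chr4:35900001-39580000 and chr14:105350001-108800000 had ratios of 0.685, 0.804 and 0.812. The gap chr17:36685001-40385000, 3700 kb long, stood apart at 1.78 (1.72 to 1.84). It contained both the lowest 1 Mb window named above, at 0.264, and the highest input bin of the genome, in which 816 of the gap's 4021 ChIP tags and 1701 of its 20365 input tags lay within 1 kb. The part of that bin in the ratio of the gap was not tested.

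The unamplified input was far from even. The variance of its tags per covered bin exceeded the mean 8.33-fold at 1 kb, 29.5-fold at 5 kb, 53.2-fold at 10 kb, 402-fold at 100 kb and 3012-fold at 1 Mb. Pure counting would give 1. After taking counting off, bins differed by a coefficient of variation of 84.1% at 1 kb, 74.1% at 10 kb and 56.8% at 1 Mb, so the unevenness was only partly averaged out in larger windows. At 10 kb, bins at the 5th and 95th percentiles held 20 and 230 tags. Leaving out all bins that touch a domain gave nearly the same excess at 10 kb, 52.5-fold.

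Depth varied over long stretches. Input tags of 10 kb bins had a Pearson correlation along the chromosome of 0.835 at a distance of 10 kb, 0.685 at 100 kb, 0.445 at 1 Mb and 0.0947 at 10 Mb (235743, 234613, 231573 and 214503 pairs of bins of the same library, the top 0.1% left out). Deep and shallow stretches thus extended over megabases.

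The input was deeper where the mark was. Inside domains it had 13.1 tags per kb and outside 8.78, 1.49 times as many. Windows of 1 Mb without a domain had 4.88 input tags per kb, and those with at least 50% of their length in domains had 15.4, 3.15 times as many (143 and 70 windows). The amplified input rose over the same windows by 1.99 times. At 100 kb the figures were 1.82 times for the unamplified and 1.43 times for the amplified input.

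Background ChIP tags followed the input closely over its whole range. Away from domains, 166243 bins of 10 kb were put into 10 classes by their plus-strand input tags, and depth was measured with minus-strand tags. From the lowest to the highest class the input rose 10.2-fold, from 2.06 to 21.1 tags per kb, and the ChIP 12.3-fold, from 0.176 to 2.17 tags per kb. The amplified input rose 4.87-fold over the same bins. The ratio stayed below 1 throughout, at 0.752 in the second lowest class and 0.927 (0.924 to 0.931) in the highest, with 0.879 over all. The background scale was thus higher than the level far from domains, and the ratio there was lower where input was thin.

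**Figure D5:**
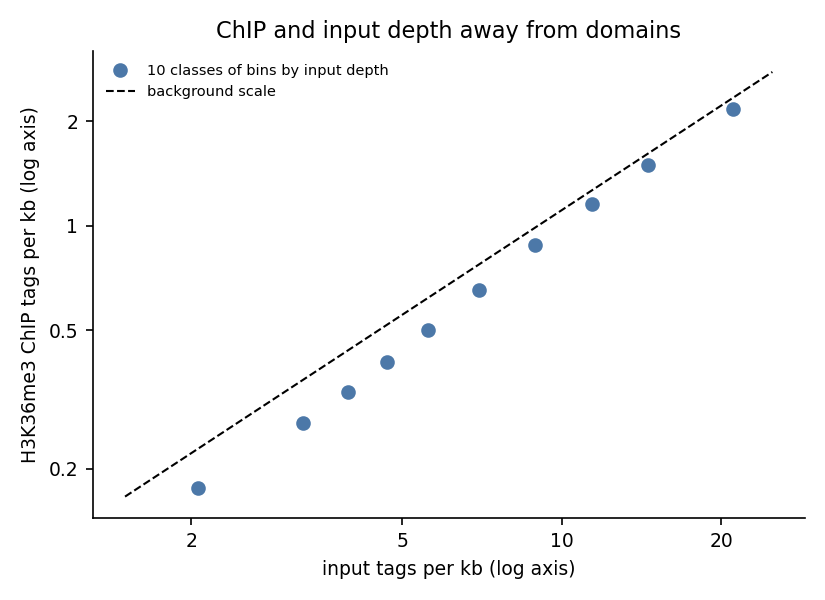
H3K36me3 ChIP tags per kb (vertical, log axis) against input tags per kb (horizontal, log axis) for 10 classes of 10 kb bins away from domains, with the background scale as a dashed line. All 10 points lie below the line, from a ratio of 0.752 to 0.927, and they run nearly parallel to it.

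Some bins had no ChIP tag despite input. Of 46477 bins of 10 kb with 30 to 49 input tags, 3564 (7.67%) held none. The background scale gives 3.33 ChIP tags for 30 input tags, and the level away from domains was lower than that scale. In bins with 10 to 19 input tags the share was 26.0%, and with 150 or more it was 0.0301%. Among 4833 such bins with at least 30 input tags, 4222 had no neighbour of the same kind, and the longest run was 40 kb. An empty neighbour with fewer input tags ended a run, so stretches without ChIP tags may be longer than that. In the empty bins with 30 to 49 input tags the amplified input was nearly as deep, with 6.22 tags per bin against 6.66 over all bins with 30 to 49 input tags.

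The highest input bins were few and only in part followed by the ChIP. The bin chr17:39452001-39453000 held 1701 input tags, 179 times the mean, and 816 ChIP tags, a ratio of 4.33 (3.97 to 4.71), but 5 tags of the amplified input. Neither H3K36me3 list held repeated tags, so a position counts at most 1 tag per strand. In so deep a bin this limits the larger count, here the input, more than the ChIP, and the ratio may be too high. The interval does not cover this. The bin chr11:3093001-3094000 had 804 input and 75 ChIP tags (0.841), and chr4:3010001-3011000 had 463 and 26 (0.506). The ratios at chr2:98467001-98468000 (541 input tags) and chr5:3000001-3001000 (391) were 5.47 and 2.44. Only the bin on chromosome 2 was in a domain. The 2487 bins of 1 kb with at least 51 input tags, the top 0.1%, held 0.823% of the input tags. Of these bins 26.8% were H3K4me3 bins, against 0.982% of all covered 1 kb bins. H3K4me3 bins are set by tag number without dividing by input. The amplified input was also deeper in the top bins, with 2.10 tags per bin against 1.10, and its part in that share was not tested.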

How the data were processed

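For each library the authors deposited a list of placed tags, with chromosome, position and strand sign and with no score or normalised value, so every count, ratio and log2 value given is computed here from these deposited positions. Per the submitters' processing notes, the build is mm8. Neither the aligner nor the read length is given in the sources used here. The lists' names say that each tag has a unique place. The H3K4me3 input list held repeated tags, of which 951496 were removed. The members, the lists and the comparisons were chosen with earlier results of these data known.

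Tags were shifted by 75 bp and counted on chromosomes 1 to 19. Bin ratios were (ChIP + b) / (b × (input + 1)), with b the background scale, and pooled ratios added nothing. Bins were tested as described if they held at least 10 tags. Smoothing used a kernel SD of 0.25 log2 units, and a maximum counted if it rose by 5% of the highest. Edges were moved to the likeliest change within 10 kb. For the middle of a gap, its number of 5 kb bins was divided by 3 and rounded down. That many bins were left off at each end, so gaps of 10 kb were measured whole. Regions named are the 5 widest domains, the 5 longest gaps at least 80% covered, the 5 edges with the largest lower bound of the step, the 5 highest and 5 lowest windows of 1 Mb, and the 5 highest 1 kb input bins. No gene was placed, since the reference table given is of another build. Counting, testing and fitting used Python 3.11.15, numpy 2.4.6, scipy 1.17.1 and pandas 2.3.3, and the functions were tested on simulated data.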

Additional observations from a re-analysis of the deposited data

Results flagged for a closer look

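Chromosomes X and Y were not part of the comparisons above, and both held ChIP tags above the scaled input. On chromosome X, 161053 ChIP tags stood against 580101 input tags, a ratio of 2.50 over the autosomal background scale (95% interval 2.49 to 2.52), against 4.12 for the autosomes together. On chromosome Y, 887 ChIP tags and 1419 input tags gave a ratio of 5.64 (5.18 to 6.13), which rests on far fewer tags. The mitochondrial genome had 0 ChIP tags and 97 input tags, which allows a ratio of up to 0.350. The lowest bins of chromosome X gave a background scale of their own of 0.0821.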

How the results depend on the processing

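Of 47 alternatives, 24 left a count within 1.5 times, a share or scale within its counting interval or another value within 10%, and 23 moved it. The background scale moved with each of its 6 alternatives: 0.0909 from the lowest 25% of bins, 0.261 by input alone, 0.0899 from the most frequent ratio, 0.457 from totals, 0.112 in 5 kb bins and 0.122 in 100 kb bins. A ratio of at least 8 called 47652 bins of 5 kb, and totals with the ratio kept at 4 called 24503. The other 11 alternatives gave 51513 to 106264, and the number of domains ran from 10484 to 19645. Their length, 402.8 Mb in the main setting, ran from 255.4 Mb at a ratio of at least 8 to 568.1 Mb at 2. The number of 100 kb or more was 275 with totals, 1415 at a ratio of at least 2, 234 at 8, 295 with no gap joined and 1345 with gaps of 3 bins joined, against 720. The amplified input called 104202 bins, which included 71289 of the 75360. The median gap was 35 kb at a ratio of at least 2 and 45 kb at 8. The number of peaks at 10 kb became 1 with at least 50 tags, with a kernel SD of 0.5 and with at least 1 ChIP tag. At 100 kb it became 2 with a kernel SD of 0.15 or at least 500 tags, and at 1 Mb 1 with a kernel SD of 0.5. Edges placed and measured by ChIP tags alone rose over 1.92 kb, 1.64 kb with H3K4me3 and 2.14 kb without it. From ChIP tags alone the H3K4me3 end had the larger step in 66.8% of one-ended domains. H3K4me3 bins of at least 10 tags lay at 41.0% of edges and of at least 30 tags at 24.7%. The input variance over mean at 10 kb was 46.2 without the highest 0.1% of bins and 24.9 with the input thinned to the ChIP. The strand correlation at 10 kb was 0.795 in bins with at least 50 tags. Causes were not tested, except that thinning lowers the variance over mean by construction. Scaling by the most frequent ratio, totals with a ratio of 4, steps from ChIP tags alone, peaks from bins with a ChIP tag, and all alternatives at 100 kb and 1 Mb for the number of peaks were added after seeing the data.

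No paired analysis was possible because each group has 1 library. Single bins up to 10 kb are limited by ChIP depth, with a median of 4 ChIP tags in tested 5 kb bins, so weak marking there was often not detectable. Repeated tags were absent from both H3K36me3 lists, which limits the height of very deep places. All values describe 1 ChIP and 1 input, and rise distances near 1 kb are at the limit of the 1 kb grid.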
